A study of Mus musculus with 4 samples.

Results

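The genes described here are 10 members of the tumour necrosis factor (TNF) superfamily, 6 ligands (Tnf, Tnfsf9, Tnfsf10, Tnfsf13, Tnfsf13b and Tnfsf14) and 4 receptors (Tnfrsf1a, Tnfrsf1b, Tnfrsf9 and Fas). They were chosen by name, and all 10 were found among the 28074 gene symbols of the deposited table. RNA sequencing measured them in spleen cells from 2 mice with acute myeloid leukaemia, numbered 4050 and 4182. The cells of each mouse were cultured for 3 days either with vehicle (control, n = 2) or with 10 µg/ml R848 (resiquimod, n = 2). R848 is a small molecule that activates TLR7, a receptor for RNA in endosomes. The aim was to find genes and pathways that change with the drug. All 4 samples carry the floxed Dnmt3a, Flt3ITD and Mx1Cre alleles, and the labels give Dnmt3a both as fl/fl and as +/-, a conflict that was not resolved here. Mx1Cre is a Cre recombinase under a promoter that interferon induces. The cells had been frozen and, before treatment, recovered for 24 hours in medium with 20% serum, SCF at 60 ng/ml and IL6 and IL3 at 20 ng/ml each. The labels name no sorting step, no age and no sex.

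TNF superfamily ligands are mostly trimeric membrane proteins, many of which are also shed, and they cluster their receptors on the target cell. Receptors with a cytoplasmic death domain, such as Fas and TNFR1, can assemble caspase-activating or kinase complexes, and the others recruit TRAF adaptors that feed NF-kB and MAP kinase signalling. In myeloid cells Tnf is a classical product of Toll-like receptor stimulation, and several other ligands of the family act on lymphocytes.

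The table gives log2(value + 1) per gene and sample. The linear values, which the authors call FPKM (a length-normalised level), summed to between 950530 and 962001 per sample. Near-equal sums close to a fixed total are also what TPM, a length-normalised unit scaled to a fixed total, would give, so which of these units the levels are in was not settled. The files hold no counts, so the number of reads behind a value is unknown. Dnmt3a stood at 14.5 and 15.7 FPKM in the controls and 14.4 and 13.0 with R848, a total that does not check the deleted exons. Flt3 stood at 1.57 and 1.92 FPKM in the controls and 0.331 and 0.0942 with R848, lower in both mice and too low to be tested. Markers matched a mainly myeloid sample, with Lyz2 from 3990 to 6170 FPKM and the 10 neutrophil markers summing to between 54600 and 96300 FPKM. Markers of other cells moved with treatment. Of 7 tested B cell markers 4 passed the limma test upward (summed level 35.3 to 37.6 FPKM in control, 405 to 557 with R848). So did 4 of 8 plasma cell markers (546 to 696, then 1170 to 1340) and 3 of 8 T cell markers (13.6 to 14.7, then 24.1 to 33.4), beside 1.47% of all genes tested. Most of the B cell sum with R848 was Ighm, at 513 and 358 FPKM in mice 4050 and 4182. Igkc, in the plasma cell list, went from 4.9 and 2.74 to 601 and 507 FPKM. Of 4 tested NK cell markers 0 passed limma, and 1 had an unadjusted limma p under 0.05. The NK list summed to 152 and 260 FPKM in control and to 243 and 246 with R848, while its receptor Ncr1 was listed at 0 in 3 of the 4 samples. Among 12 monocyte and macrophage markers 2 passed upward (5270 to 6930, then 6840 to 7590). With the mouse as a block 5 of them rose and 1 fell, Ccr2 (-0.82, limma adjusted p = 0.0055). Of 8 mast cell and basophil markers (1740 to 1820, then 1650 to 2780) 0 passed unpaired and 2 rose with the block, beside 3.4% of all genes. Of 5 megakaryocyte markers Pf4 passed upward (list sum 86.4 to 101, then 214 to 451, mostly Pf4), and Ppbp rose with the block. Gp9 was lower in both mice (-0.23 and -0.57), and Itga2b (-0.12) and Gp1ba (-0.06) moved in opposite directions. The list median was -0.06, so the list did not rise as a whole. Of 4 tested dendritic cell markers Itgax fell with the block (-2.08, limma adjusted p = 0.00132), beside 1.9% of all genes. It went from 15.3 and 3.02 FPKM to 1.31 and 0.584 FPKM in mice 4050 and 4182. Zbtb46 (-0.19), Batf3 (0.11) and Ccr7 (0.06) passed in neither fit, and the list median was -0.06. The part of these cells in the results below was not tested, and in bulk RNA fewer cells of a type and less RNA per cell cannot be told apart.

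With R848, transcripts of the death receptor Fas and of the death ligand TRAIL (Tnfsf10) were higher in both mice, those of TNFR2 (Tnfrsf1b) and Tnf were higher by smaller amounts, and the remaining 6 members were lower on average or near their control level. Without pairing the mice, 0 of the 10 members passed limma at a Benjamini-Hochberg adjusted p under 0.05, beside 1.85% of the 12612 genes tested. At an unadjusted p under 0.05 there were 3, Tnfsf10, Tnfrsf1b and Fas, all higher, beside 11.5% of genes in either direction and 5.2% higher. With the mouse as a block, which uses the pairing that the labels give, 2 of 10 members rose, Fas and Tnfsf10, and 0 fell, beside 3.4% of all genes higher, 1.9% lower and 5.3% called either way. All 10 members had a mean of at least 1 FPKM and entered the test.

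The median log2 difference of the members was -0.07, against -0.08 over all genes tested. It was -0.20 for the 6 ligands and 0.23 for the 4 receptors. In 4 members the R848 sample was above the control in both mice, in 2 it was below in both, and in 4 the mice moved in opposite directions, beside 38.9% of genes tested that did so. Of the 12612 genes tested, 2787 were above in both mice and 4896 below in both. The groups did not overlap for 5 members, with R848 above for Tnfsf10, Tnfrsf1b and Fas and below for Tnfsf13b and Tnfsf14, beside 42.2% of genes tested. The share without overlap is thus near the background, and it was 13.5% of genes for R848 above and 28.8% for R848 below.

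**Figure D1:**
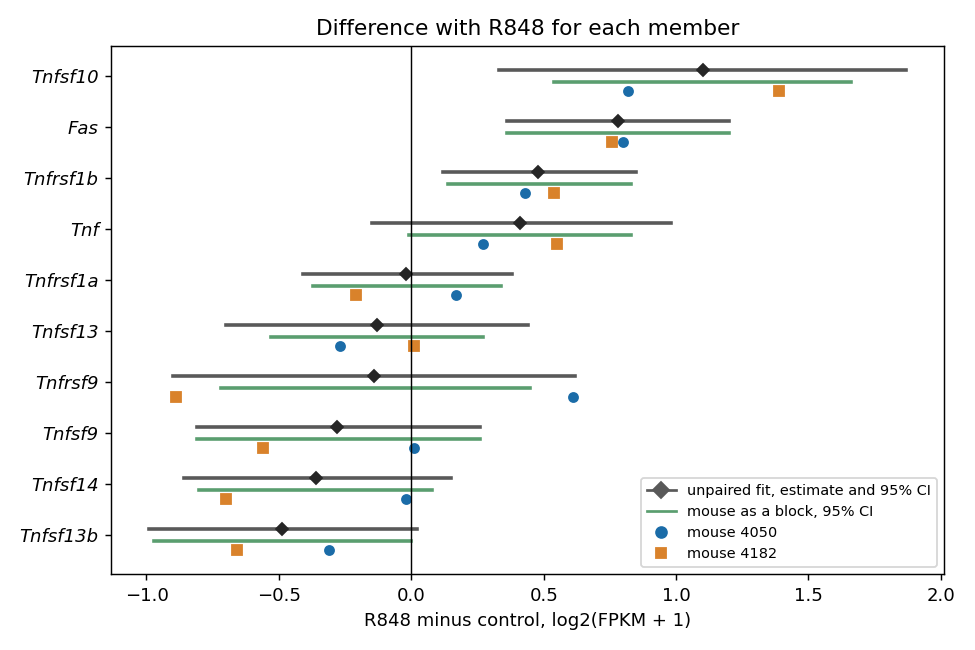
Difference between R848 and control on the log2(FPKM + 1) scale for each of the 10 members, as the estimate and 95% confidence interval of the unpaired limma fit (black diamond and grey line), the interval with the mouse as a block (green line) and the difference in each mouse (blue circle, 4050, and orange square, 4182). Tnfsf10 at 1.10 and Fas at 0.78 lie farthest to the right, Tnfsf13b at -0.49 farthest to the left, and the points of Tnfrsf9 lie on opposite sides of 0.

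Fas, the receptor through which cytotoxic lymphocytes trigger apoptosis, had the closest log2 differences in the mice among the 4 members that were higher in both. It was at 10.7 and 9.81 FPKM in the controls of mice 4050 and 4182 and at 19.4 and 17.3 with R848. Both R848 samples stood well above both controls, and the mice differed little from each other within a group. The means were 10.3 ± 0.66 and 18.4 ± 1.47 FPKM (SD, n = 2 each), 1.79-fold apart, and the log2 differences were 0.80 and 0.76 in the mice. The estimate was 0.78 (SE 0.18, 95% interval 0.36 to 1.20) with limma adjusted p = 0.104 unpaired and 0.0345 with the mouse as a block. Of the genes tested, 5.87% had a larger absolute difference. Fas lies on chromosome 19 of GRCm38 from 34290666 to 34327772, on the plus strand.

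Tnfsf10 encodes TRAIL, a ligand that engages death receptors and is known as an interferon-stimulated gene. It was the least abundant member in control, at 1.03 and 1.51 FPKM, and reached 2.57 and 5.59 FPKM with R848 (mice 4050 and 4182). Both R848 samples were above both controls, but the R848 samples lay farther from each other than the controls did. The means were 1.27 ± 0.342 and 4.08 ± 2.13 FPKM (SD, n = 2 each), with log2 differences of 0.82 and 1.39 in the mice. The estimate was 1.10 (SE 0.328, 95% interval 0.33 to 1.87), exceeded in size by 3.15% of genes. Limma adjusted p was 0.22 unpaired and 0.0242 with the mouse as a block, where the SE was 0.258. Without the R848 sample of mouse 4182 the unpaired difference was 0.66 (limma adjusted p = 0.752). With the block after quantile normalization it was 1.19 with limma adjusted p = 0.0517, so the call ended there. Tnfsf10 lies on chromosome 3 from 27317028 to 27342427, plus strand.

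Fasl and Tnfrsf10b, partners of these death pathway members, were less abundant or differed in direction. Fasl, the ligand of Fas, was listed at 0.0223 and 0.043 FPKM in control and at 0.318 and 0.579 with R848, too low to be tested. The R848 value was above the control in both mice but below 1 FPKM in each sample, while 3 of 8 tested T cell markers rose (above) and Il7r was lower in both mice (-0.66 and -0.85, limma adjusted p = 0.373). Tnfrsf10b, the mouse death receptor for TRAIL, had means of 5.25 ± 0.328 in control and 4.15 ± 0.0399 FPKM with the drug (SD, n = 2 each). Its log2 differences were -0.34 and -0.22 in the mice, and it did not pass limma (adjusted p = 0.68).

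The bases just upstream of Fas and Tnfsf10 are shown because these are the members that passed with the mouse as a block. The sequences are from RefSeq on GRCm38.p6, on the plus strand, and end before the earlier of the RefSeq and GENCODE starts. They span chr19:34290409-34290658 for Fas and chr3:27316827-27317027 for Tnfsf10. Capitals mark the GAS motif TTCNNNGAA, the element that STAT dimers bind, which reads the same on both strands.
Fas: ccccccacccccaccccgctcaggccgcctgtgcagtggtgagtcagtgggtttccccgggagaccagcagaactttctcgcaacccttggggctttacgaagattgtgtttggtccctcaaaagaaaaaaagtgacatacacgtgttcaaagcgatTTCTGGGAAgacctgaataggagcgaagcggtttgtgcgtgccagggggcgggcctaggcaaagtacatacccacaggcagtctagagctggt
Tnfsf10: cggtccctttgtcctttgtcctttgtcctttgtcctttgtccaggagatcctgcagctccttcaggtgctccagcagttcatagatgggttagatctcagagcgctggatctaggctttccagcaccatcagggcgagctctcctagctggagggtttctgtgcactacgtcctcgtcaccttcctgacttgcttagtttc

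In Fas the motif TTCTGGGAA stood at bases -93 to -85 from the RefSeq start. Each 250-base window upstream of a RefSeq start was searched on both strands for GAS, for the interferon-stimulated response element (ISRE) and for the NF-kB motif of 10 letters, known by that name. Windows were found for 9 of the 10 members (11 windows), not for Tnfsf9. GAS was in 4 of these 11 windows (Fas, Tnfrsf1a, Tnfrsf1b and the second of 2 starts of Tnfrsf9), beside 7.02% of 32851 windows of the same length. ISRE was in 2 (Tnfrsf1b and Tnfsf13b), beside 2.98%, and the NF-kB motif in 1 (Tnfrsf9, in overlapping copies at -43 and -42), beside 7.25%. Tnfsf10, Tnf, Tnfsf13 and Tnfsf14 held none of these letters in their windows. Members with a motif thus included genes on either side of 0, and a match is a description of the sequence alone. The windows follow RefSeq starts. By GENCODE the motifs of Tnfrsf1a, Tnfrsf9 and Tnfsf13b lie inside the gene, and only those of Fas and Tnfrsf1b are upstream of both starts.

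**Figure D2:**
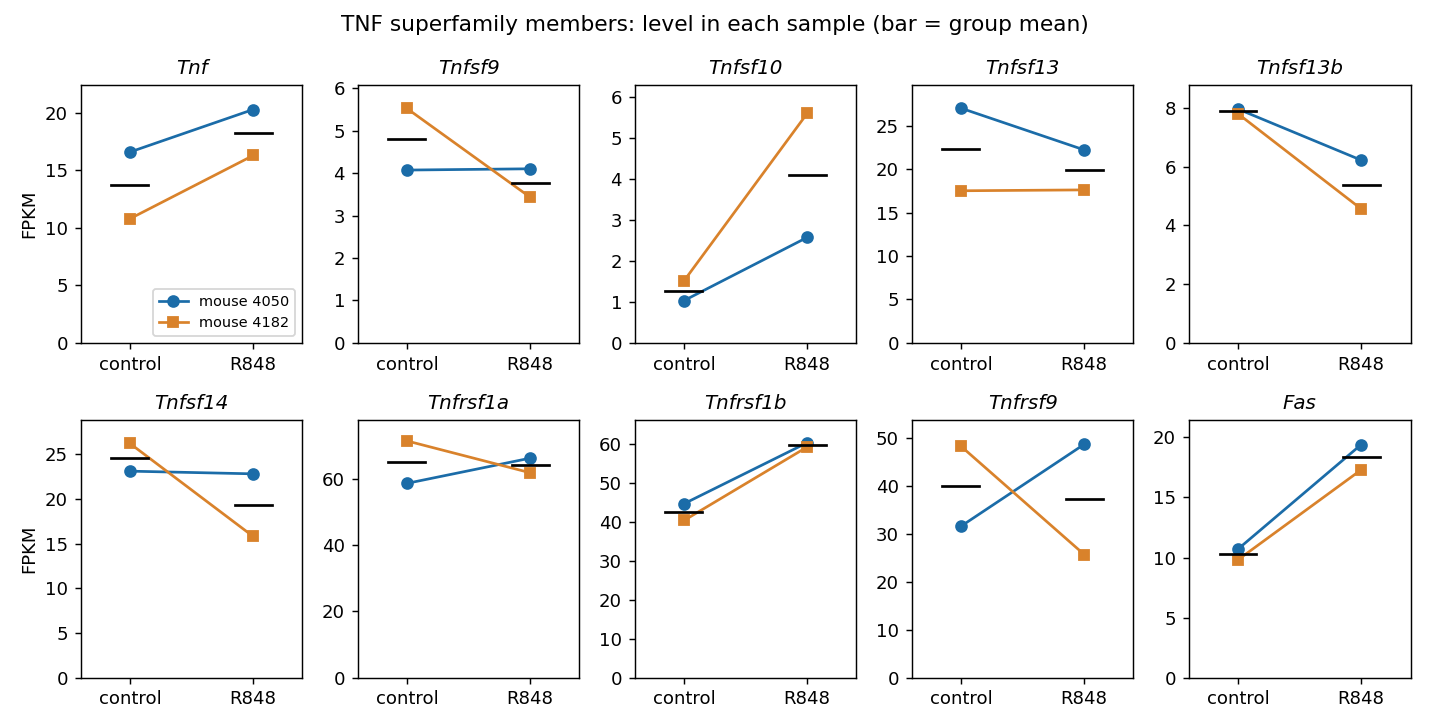
FPKM of each member in the 4 samples, on axes that start at 0, with lines joining control and R848 of the same mouse (blue circles, 4050, and orange squares, 4182) and black bars for the group means (n = 2). For Fas and Tnfrsf1b the lines of the mice run nearly parallel, for Tnfsf10 the line of mouse 4182 is steeper, and the lines of Tnfrsf9 cross.

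Tnf, the founding cytokine of the family, was measured at 16.6 and 10.8 FPKM in control and at 20.3 and 16.3 with R848, in mice 4050 and 4182. The R848 sample was above its own control in each mouse, but the groups overlapped, since the R848 sample of mouse 4182 lay just below the control of mouse 4050. The estimate was 0.41 (SE 0.241, 95% interval -0.15 to 0.98), from 0.27 and 0.55 in the mice. Limma adjusted p was 0.593 unpaired and 0.337 with the mouse as a block.

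The TNF receptors differed from each other in their values. Tnfrsf1a, the death-domain receptor TNFR1, was the most abundant member, at 58.6 and 71.4 FPKM in control and 66.2 and 61.8 with R848. Its mice moved in opposite directions (0.17 and -0.21), and the estimate was -0.02 (95% interval -0.41 to 0.38, limma adjusted p = 0.986). Tnfrsf1b, TNFR2, which lacks a death domain and signals through TRAF adaptors, was at 44.7 and 40.4 FPKM in control and 60.4 and 59.3 with R848. Its groups did not overlap, and both mice moved by similar amounts (0.43 and 0.54). The estimate for Tnfrsf1b was 0.48 (SE 0.157, 95% interval 0.12 to 0.85), with limma adjusted p = 0.26 unpaired and 0.122 with the mouse as a block, so it did not pass. The difference between the 2 receptors' changes was not tested.

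Tnfsf9 and Tnfrsf9, the costimulatory pair 4-1BBL and 4-1BB, did not pass the test. Tnfrsf9 stood at 31.6 and 48.3 FPKM in the controls and 48.7 and 25.7 with R848 (mice 4050 and 4182). R848 was above control in mouse 4050 and below it in mouse 4182, with log2 differences of 0.61 and -0.89. Of the 4 receptors it had the widest 95% interval (-0.90 to 0.62, limma adjusted p = 0.921). Its gene overlaps Camta1 on the opposite strand, and whether the counting used strand is not given in the sources used here. Tnfsf9 stood at 4.07 and 5.52 FPKM in the controls and 4.10 and 3.43 with R848. It barely moved in mouse 4050 (0.01) and was lower in mouse 4182 (-0.56), with an estimate of -0.28 (95% interval -0.81 to 0.26, limma adjusted p = 0.731).

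Tnfsf14, the ligand LIGHT, and its receptors differed in direction. Tnfsf14 stood at 23.1 and 26.2 FPKM in the controls and 22.8 and 15.8 with R848. Its groups did not overlap, although nearly the whole difference came from mouse 4182 (-0.70, against -0.02 in mouse 4050). The estimate was -0.36 (95% interval -0.86 to 0.15, limma adjusted p = 0.607). Tnfrsf14 (HVEM), a receptor of LIGHT on many leukocytes, was at 41.4 and 34.6 FPKM in control and 69.4 and 65.8 with R848. It was higher in both mice (0.73 and 0.91), with an estimate of 0.82 and limma adjusted p = 0.0698 unpaired, and it rose with the mouse as a block (limma adjusted p = 0.00823). Its window held an ISRE, TTTCATTTTC, at -64 to -55 from the RefSeq start, which is inside the gene by GENCODE. It was the only gene outside the members whose window was examined singly, and 2.98% of all windows held an ISRE. Ltbr, the other LIGHT receptor, was at 33.0 ± 4.66 and 35.8 ± 0.0627 FPKM (SD, n = 2 each) and did not pass (0.12, limma adjusted p = 0.858).

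Tnfsf13b and Tnfsf13, the B cell survival factors BAFF and APRIL, were not higher with R848. Tnfsf13b stood at 7.96 and 7.80 FPKM in the controls and 6.22 and 4.56 with R848. The controls were nearly equal and both R848 samples were lower, by 0.31 and 0.66 on the log2 scale. The estimate was -0.49 (95% interval -0.99 to 0.02), with limma adjusted p = 0.454 unpaired and 0.321 with the mouse as a block. Tnfsf13 stood at 27.0 and 17.5 FPKM in the controls and 22.2 and 17.6 with R848. It separated the mice more than the treatments, and its estimate was -0.13 (95% interval -0.70 to 0.44, limma adjusted p = 0.9). It overlaps the antisense gene Tnfsf13os and the read-through gene Tnfsfm13, so its value is uncertain.

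The receptors of these factors had different levels. Tnfrsf13b (TACI), which binds both, had means of 55.4 ± 11.6 in control and 42.4 ± 0.759 FPKM with the drug (limma adjusted p = 0.543). Tnfrsf13c, the BAFF receptor, was at 1.36 ± 0.0458 and 2.52 ± 0.16 FPKM, and differed by 0.58 on the log2 scale (limma adjusted p = 0.37). Tnfrsf17 (BCMA), the plasma cell receptor, was listed at 0 in 3 samples. Of the tested B cell and plasma cell markers, 6 of 7 and 6 of 8 were higher with R848 in both mice. Fcer2a (-0.13) and Irf4 (-0.71) were lower in both, and Xbp1 moved in opposite directions (0.22 and -0.3). The part of these cells in the values of the receptors was not tested.

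By level per length, the control order began with Tnfrsf1a (65.0 ± 9.07), Tnfrsf1b (42.6 ± 3.02) and Tnfrsf9 (39.9 ± 11.9). It went on with Tnfsf14 (24.6 ± 2.20), Tnfsf13 (22.3 ± 6.71), Tnf (13.7 ± 4.12), Fas (10.3 ± 0.66), Tnfsf13b (7.88 ± 0.111), Tnfsf9 (4.80 ± 1.02) and Tnfsf10 (1.27 ± 0.342), all as mean FPKM ± SD with n = 2. The samples of Tnfrsf1b and Tnfrsf9 overlapped, as did those of Tnfsf14 and Tnfsf13. With R848 the first 3 places were the same, at 64.0 ± 3.09, 59.8 ± 0.808 and 37.2 ± 16.3 FPKM. Tnfsf13, Tnfsf14, Fas and Tnf then lay between 19.9 and 18.3 FPKM, with each neighbour overlapping the next. Tnfsf13b, Tnfsf10 and Tnfsf9 came last, at 5.39, 4.08 and 3.76 FPKM, and also overlapped. The 3 TNF and 4-1BB receptors were thus above every member ligand in mean level in both groups.

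**Figure D3:**
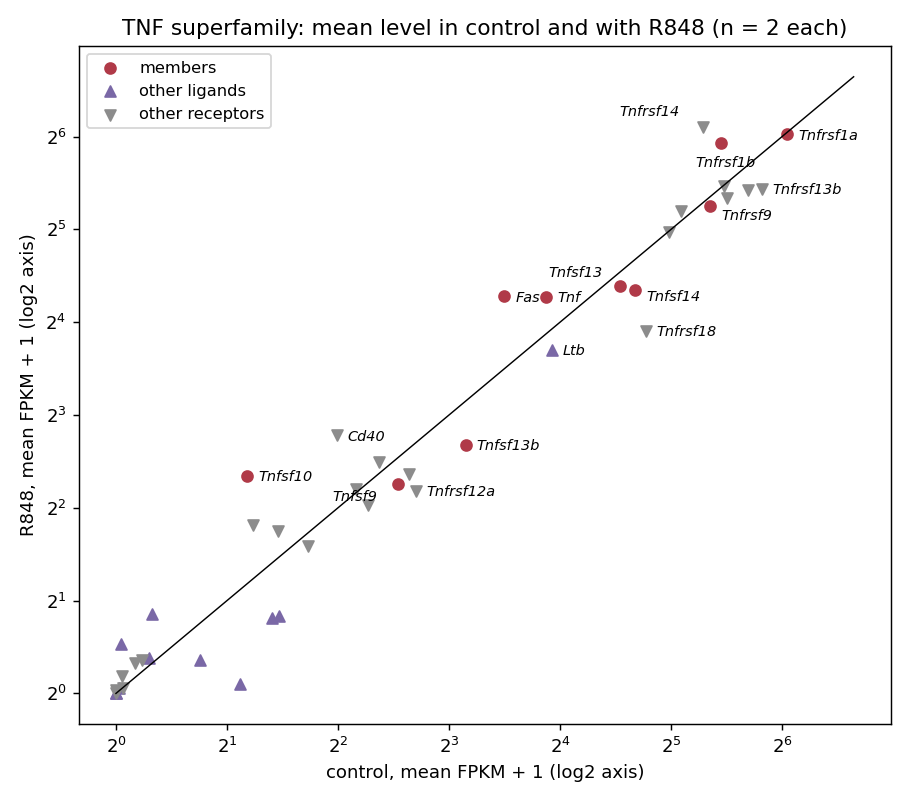
Mean FPKM + 1 in control (x) and with R848 (y), each n = 2, on log2 axes, for the 10 members (red circles), other ligands (purple triangles) and other receptors (grey triangles) of the superfamily. The line marks equal levels. Tnfsf10, Fas and Tnfrsf14 lie above it, Tnfrsf18 and Tnfsf13b below it.

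Several members sit beside relatives in the genome, and neighbours differed in level. Tnf (chromosome 17, 35199381 to 35202007) lies 3.06 kb from Ltb and 1.16 kb from Lta, the lymphotoxin genes. Ltb was at 16.6 and 11.8 FPKM in the controls of mice 4050 and 4182 and at 16.1 and 7.89 with R848, with a log2 difference of -0.28 (limma adjusted p = 0.812) where that of Tnf was 0.41. Lta was too low to be tested, at 0.32 and 2.03 FPKM in control and at 0 and 0.153 with R848. Farther along the chromosome, Tnfsf9 (57105325 to 57107757) and Tnfsf14 (57189492 to 57194177) lie 81.7 kb apart with Cd70 between them, and Cd70 was listed at 0 in all 4 samples. Tnfrsf1a (chromosome 6, 125349362 to 125362484) lies 35.5 kb from Ltbr, and Ltbr stood at 36.3 and 29.7 FPKM in the controls and 35.9 and 35.8 with R848. Tnfrsf1b (chromosome 4, 145213463 to 145246870) lies 20.3 kb from Tnfrsf8 (CD30), which was at 4.16 and 4.62 FPKM on average.

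In the wider superfamily, 45 of 46 listed genes were matched and 30 were tested. Of these 30, 0 passed limma unpaired, beside 1.85% of all genes tested. At an unadjusted limma p under 0.05, 6 were higher and 1 was lower, beside 11.5% of genes in either direction and 5.2% higher. With the mouse as a block 3 rose (10%), Fas, Tnfsf10 and Tnfrsf14, beside 3.4% of genes. Among those that are not members, 3 ligands had a median log2 difference of -0.54 and 17 receptors one of -0.01. By the mean over the 4 samples, the most abundant were Ltb, Tnfsf11 (RANKL) and Tnfsf8 (CD30L) among the ligands, the last pair at mean levels below 2 FPKM in each group. Among the receptors Tnfrsf14 came first (52.8 FPKM), followed by Tnfrsf13b, Tnfrsf22 (50.8 ± 0.435, then 41.8 ± 4.08 FPKM) and Tnfrsf26 (43.4 ± 7.55, then 43.2 ± 3.86). Tnfrsf22, Tnfrsf23 and Tnfrsf26 are similar neighbouring genes of mouse chromosome 7, between which reads may be split. Cd40, the costimulatory receptor of antigen-presenting cells, had a log2 difference of 0.78 that did not pass (limma adjusted p = 0.235 unpaired and 0.0871 with the block).

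The signalling genes downstream of the receptors gave 3 calls among 54 tested genes with the mouse as a block, all upward, and 0 without it. That is 5.56%, not far from the 3.4% of all genes called higher in that fit. Of 14 adaptors and ubiquitin ligases 0 passed in either fit, with 1 at an unadjusted limma p under 0.05, and the median was 0.03. That gene, Birc3 (cIAP2), an NF-kB target that restrains TNFR1 killing, was at 47.2 ± 5.18 and 70.2 ± 0.0563 FPKM (0.57, limma adjusted p = 0.196 unpaired and 0.0641 with the block). Traf1 was next, with 1.01 in mouse 4050 and -0.05 in mouse 4182.

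Of 8 death signalling genes 1 rose with the block, and the median was 0.03. Mlkl, the pore former of necroptosis, went from 36.2 ± 3.12 to 65.9 ± 15.8 FPKM (0.83, limma adjusted p = 0.124 unpaired, 0.0182 with the block). That call ended when the block was fitted after quantile normalization (limma adjusted p = 0.0819) or median log ratio scaling (0.0536). Casp8, the initiator caspase of death receptors, was at 67.5 ± 2.43 and 76.2 ± 7.11 FPKM and did not pass (0.17, limma adjusted p = 0.762). Of 10 kinases and partners in the relay to NF-kB, Ikbke rose with the block, from 67.0 ± 0.371 to 113 ± 14.5 FPKM (0.74, limma adjusted p = 0.0876 unpaired, 0.0124 with the block), and the median was -0.03. Map3k14 (NIK), the kinase of the alternative NF-kB pathway, was lower in both mice (-0.67 and -0.73) and did not pass (-0.70, limma adjusted p = 0.238 unpaired, 0.112 with the block).

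Of 10 brakes on receptor signalling 0 passed in either fit, 1 was higher at an unadjusted limma p under 0.05, and the median was 0.14. Nfkbia, the NF-kB inhibitor, was at 85.8 ± 0.0966 and 115 ± 7.37 FPKM (0.42, limma adjusted p = 0.328), and Tank was at 0.38 (0.447). Of 12 tested genes of ligand shedding, processing and Tnf mRNA control, Sppl2a, an intramembrane protease that cleaves the Tnf stub, rose with the block, from 43.0 ± 6.26 to 65.3 ± 8.70 FPKM (0.59, limma adjusted p = 0.238 unpaired, 0.0479 with the block, 0.0718 with the block after quantile normalization, where the call ended). Furin, a protease that matures precursor proteins, was at -0.65 (-0.11 and -1.19 in the mice) and did not pass (limma adjusted p = 0.378). Timp3, an inhibitor of Adam17, was at -1.10, mostly from mouse 4182 (-1.83, against -0.37), and did not pass (limma adjusted p = 0.477 unpaired, 0.0635 with the block). The mRNA-destabilising proteins Zfp36, Zfp36l1 and Zfp36l2 had log2 differences of -0.51, -0.64 and -0.50. They were lower in both mice, more so in mouse 4182, and did not pass (limma adjusted p = 0.488, 0.46 and 0.444).

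**Figure D4:**
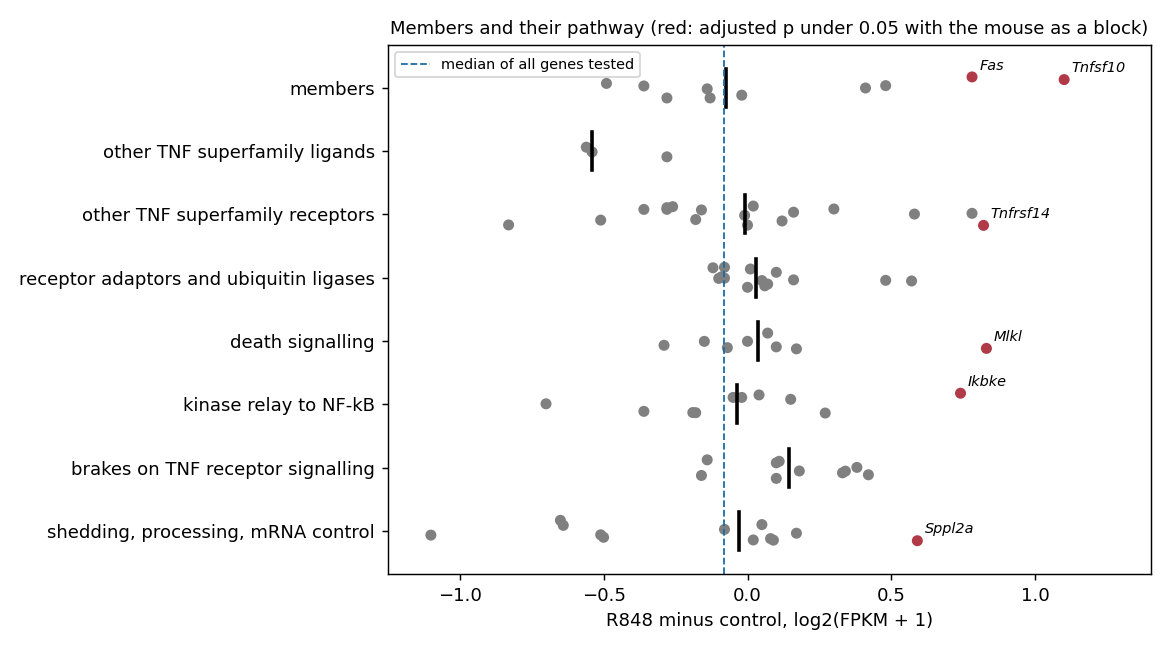
Log2 difference (R848 minus control) of each tested gene in the members and 7 related lists, with a black bar at each list's median, a dashed line at the median of all genes tested (-0.08) and red points for an adjusted p under 0.05 in limma with the mouse as a block. The red points are Fas, Tnfsf10, Tnfrsf14, Mlkl, Ikbke and Sppl2a, all on the right.

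Patterns across the 4 samples were compared by the distance between centred log2 values, as a description. The genes nearest to Tnf were Nup93, Slc35g1 and Tuba4a, at distances of 0.0344, 0.0361 and 0.0582, and their log2 differences were 0.40, 0.42 and 0.43. Those nearest to Fas, the member with the smallest unpaired adjusted p, were Mmp27, Hmox1 and Tmem2, at distances of 0.0295, 0.0705 and 0.0716, with differences of 0.80, 0.76 and 0.81.

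The signs of the larger member differences held under the settings tried. Fas stayed between 0.70 and 0.86, Tnfrsf1b between 0.41 and 0.56, Tnf between 0.12 and 0.70, Tnfsf13b between -0.68 and -0.30 and Tnfsf14 between -0.61 and -0.11, each over 14 settings. Tnfsf10 ranged from 0.66 to 1.55 over 13 settings. Fas passed in the 3 fits with the mouse as a block (limma adjusted p from 0.025 to 0.0345) and in 0 of the other 11, where its adjusted p lay between 0.0766 and 0.355. Tnfsf10 passed in 2 of the 3 fits with the block.

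**Figure D5:**
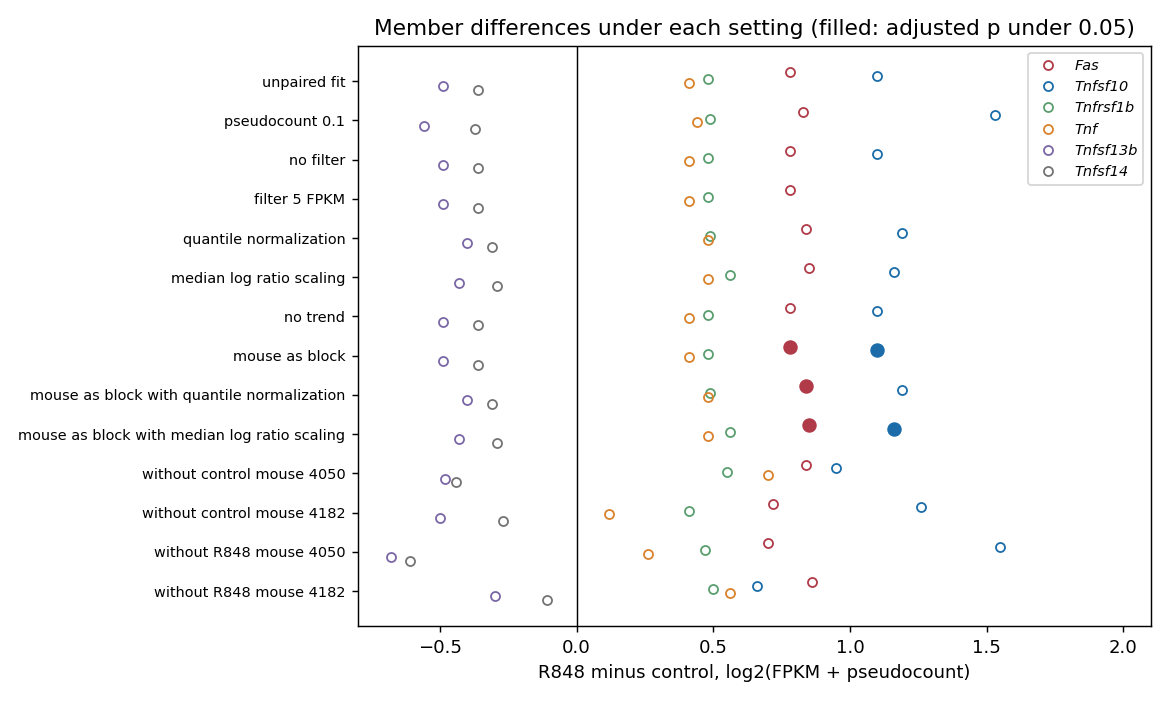
Log2 difference of 6 members under the unpaired limma fit and the alternatives, filled where the adjusted p was under 0.05. The filled points are Fas in the 3 fits with the mouse as a block and Tnfsf10 in 2 of them.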

How the data were processed

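RNA was sequenced from 4 samples, control and R848 of 2 mice, as paired reads of 150 nucleotides from RNA with an integrity number above 8.0, per the labels' protocols, which name both ribosomal depletion and a kit for mRNA, a conflict not resolved here. The submitters' processing notes name kallisto and mm10; versions, the annotation and the step to genes are not given in the sources used here. Values on a log2 scale, named FPKM, are what the authors deposited, per the file headers and name, with a pseudocount of 1 that follows from the lowest value of 0.

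Dropping 27 rows named as dates and 91 repeated symbols from 28192 rows left 28074. The 12612 genes whose mean reached 1 FPKM were fitted with limma 3.58.1 in R 4.3.3 (trended prior, two-sided, Benjamini-Hochberg over all genes, threshold 0.05). Differences are on the log2(FPKM + 1) scale and understate the change of low genes. Intervals are 95%. Like the p-values, they come from 2 samples per group and a variance moderated over genes, each sample being a separate culture of 1 of 2 animals. In the unpaired fit the variance had 2 residual degrees of freedom and 5.27 borrowed over genes. With the block it had 1 and 11.3, so calls with the block rest more on the borrowed part. The table holds no counts, so no count model was used.

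The labels give both samples of a number to 1 mouse, so the numbers pair the samples; deviations from the group means correlated at 0.289. For members and other pathway genes the block is printed where it changes a call, and for some where it does not. For marker genes it is printed only in part. The members and lists were chosen with earlier results of these data known, so no list was tested. The rule for named genes took all members, other superfamily genes that passed or were most abundant, and from each further list the genes past the threshold (unpaired, else with the block), else those with the smallest p. Partner receptors and ligands, chromosomal neighbours, Cd40, Casp8, Map3k14, Furin, Timp3 and the Zfp36 family were named after their values were seen. Of 200 listed genes 3 were matched by another symbol and 4 were not matched. One further listed gene is not reported here and is in no count or median of a list. Coordinates are GENCODE M21 on GRCm38. Alternatives were another pseudocount (0.1), no filter, a filter at 5 FPKM, quantile and median log ratio scaling, no trend, the block and leaving out each sample. The block with either scaling was added after seeing the data. The fits were tested on simulated data of 12612 genes for the comparison of R848 with control. Of 50 genes given a log2 change of 0.8, the unpaired fit found 28% and the fit with the block 38%. Of 12412 genes given no change, the unpaired fit called 0.121% and the fit with the block 0.346%, so the block also gave more false calls. These are shares of the unchanged genes. Unchanged genes far outnumbered changed ones, so the share of false calls among the genes called was much larger, in both fits. The simulated noise held no mouse effect, so the simulation cannot show what the pairing gains. Figures were drawn with matplotlib 3.10.9.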

Additional observations from a re-analysis of the deposited data

How the results depend on the processing

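Of 10 members, 0 were called in the unpaired fit and under each alternative without the block. With the mouse as a replicate block 2 were called higher, with the block and quantile normalization 1 and with the block and median log ratio scaling 2. The other pathway genes called higher went from 0 to 4, 2 and 4 under the same 3 fits, and 1 was called lower without the control of mouse 4050, so leaving out each sample gave 0 to 1. Over all genes, 185 higher and 48 lower became 429 and 240 with the replicate block, 354 and 136 with the block and quantile normalization, and 409 and 151 with the block and median log ratio scaling. They became 76 and 12 after quantile normalization, 93 and 16 after median log ratio scaling, and 0 and 0 with no filter (1880 at an unadjusted limma p under 0.05). Leaving out each sample gave 46 to 259 higher and 10 to 136 lower.

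Tnfrsf1a changed sign to 0.06 with median log ratio scaling, with or without the block, and ranged from -0.16 to 0.12 when each sample was left out. Tnfsf13 ranged from -0.43 to 0.17 and Tnfrsf9 from -0.59 to 0.31 in the same way. The cause was not tested. The median of the death signalling list was 0.11 with median log ratio scaling, with or without the block, and that of the other ligands was -0.28 with no filter. When each sample was left out, the list medians ranged from -0.18 to 0.17 for the members, -0.16 to 0.05 for other receptors, -0.07 to 0.1 for death signalling, 0.16 to 0.26 for brakes, -0.93 to -0.15 for other ligands, -0.33 to -0.04 for member ligands, 0.2 to 0.4 for member receptors, -0.22 to 0.15 for the kinase relay, -0.02 to 0.12 for adaptors and -0.24 to 0.12 for shedding and mRNA control. Depth is unknown, and 2 samples per group limit the precision.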
